A study of Mus musculus with 6 samples.

Results

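The transcripts described here come from the mitochondrial genome itself, measured in green fluorescent cells sorted from the mouse hippocampus. Members were the analysed rows whose symbol starts with mt-, which gave 13 mRNAs, together with 2 rRNA rows that carry only a gene number and that the RefSeq annotation of GRCm38.p6 names mt-Rnr1 and mt-Rnr2. That makes 15 of 20323 analysed genes. All 15 had values in every library. None of the 22 mitochondrial tRNA gene numbers of RefSeq matched an analysed row, so tRNAs are not analysed here. Blank rows were not searched for them. The growth factor neuregulin (Nrg-1β1) was given to 3 mice; the series description states a daily dose of 60 µg/kg and the sample labels give the same number in grams, so the unit is uncertain. The other 3 mice, called Vehicle, were given saline with 0.1% BSA. All 6 carried Nestin-CreERT2, a tamoxifen-inducible Cre driven by the Nestin promoter of neural progenitors, and Rosa26-mGFP, a reporter that marks cells with past Cre activity and their progeny with membrane GFP. All 6 had 10 weeks of cuprizone, a copper chelator that causes demyelination, and 4 weeks of recovery, and no group without cuprizone is analysed here. Each library came from a single mouse after magnetic sorting for GFP, and the labels give no age.

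The mammalian mitochondrial genome is a small circle present in many copies per cell. Both of its strands are transcribed into long precursors, from which tRNAs are cut out like punctuation marks, releasing the rRNAs and mRNAs between them. The mRNAs encode core membrane subunits of respiratory complexes I, III and IV and of the ATP synthase (complex V), while all other subunits, and all of complex II, come from the nucleus. Brain tissue depends heavily on this respiration, and neurons and glia hold many of these transcripts.

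Mitochondrial genes lie almost without gaps, and 4 neighbouring pairs of members share bases. The 3 pairs with the longest overlaps are printed because a read that falls within the shared stretch of genes on the same strand cannot be given to a single gene, nor, where strand is not recorded, can a read shared by opposite strands. Sequences are those of the GENCODE M21 transcripts (GRCm38), 5′ to 3′. In mt-Atp8 and in the first bases of mt-Atp6, capitals mark the 43 bases common to both, which are 21.1% of mt-Atp8 and 6.31% of mt-Atp6. In the last bases of mt-Nd4l, capitals mark the 7 bases that also begin mt-Nd4. In the last bases of mt-Nd5 and mt-Nd6, capitals mark the 14 bases in which these genes, read from opposite strands, are complementary.
mt-Atp8: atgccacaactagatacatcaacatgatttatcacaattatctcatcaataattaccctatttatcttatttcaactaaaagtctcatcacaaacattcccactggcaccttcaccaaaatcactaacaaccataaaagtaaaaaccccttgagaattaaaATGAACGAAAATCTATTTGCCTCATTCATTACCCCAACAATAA
mt-Atp6, first bases: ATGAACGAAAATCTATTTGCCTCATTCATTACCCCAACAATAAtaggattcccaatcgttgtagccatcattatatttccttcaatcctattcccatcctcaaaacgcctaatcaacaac
mt-Nd4l, last bases: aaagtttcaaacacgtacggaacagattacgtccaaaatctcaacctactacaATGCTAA
mt-Nd5, last bases: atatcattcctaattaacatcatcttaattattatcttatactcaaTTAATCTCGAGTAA
mt-Nd6, last bases: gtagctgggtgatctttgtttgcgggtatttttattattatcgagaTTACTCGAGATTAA

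The deposited values are log2(normalized count + 4), a reading taken from the values themselves, and whole reads were recovered from them. Nrg-1β1 libraries 1 to 3 held 567073, 662909 and 1327003 reads, against 72953034, 1075813 and 47076006 in Vehicle libraries 1 to 3, so depth differed between the groups. The noncoding RNA Bc1 alone took 21.4% of Nrg-1β1 library 3 and 8.25% of Vehicle library 2, and 0.279% to 1.93% of the others, which lowers every other share in those libraries. Markers of neural progenitors made up 0.0591% to 0.0930% of nuclear-encoded reads in Nrg-1β1 libraries and 0.0511% to 0.0624% in Vehicle libraries. Markers of mature oligodendrocytes made up 4.26% to 5.31% and 3.90% to 8.18%. Whether those reads came from progeny of the marked cells or from other cells carried through the sort was not tested.

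Mitochondrial transcripts were among the most abundant RNAs of these cells. Their mRNAs took 18.6%, 25.8% and 14.2% of the reads of Nrg-1β1 libraries 1 to 3, against 37.3%, 24.5% and 25.6% in Vehicle libraries 1 to 3. Vehicle library 1 stood highest, Nrg-1β1 library 3 lowest, and Nrg-1β1 library 2 lay above Vehicle libraries 2 and 3, so the groups overlapped. The group means were 19.6% ± 5.82 in Nrg-1β1 and 29.1% ± 7.08 in Vehicle (SD, n = 3 each), a difference of -9.58 percentage points. Without Vehicle library 1 it was -5.50. With Bc1 left out of the total, the share in Nrg-1β1 library 3 was 18.1% and that in Vehicle library 2 26.7%. Counting error is small at these depths: in the shallowest library the exact 95% interval (Clopper-Pearson) of the mRNA share ran from 18.5% to 18.8%. In bulk samples fewer cells of a type and less RNA per cell cannot be told apart.

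**Figure D1:**
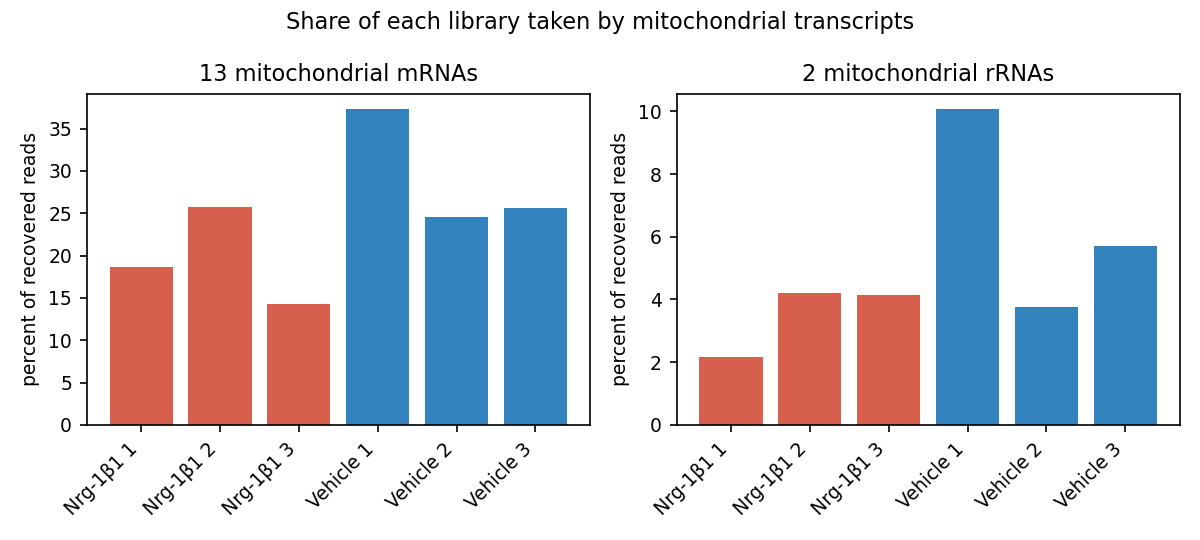
Percent of recovered reads (y axes, from 0) taken by the 13 mitochondrial mRNAs (left) and the 2 rRNAs (right) in each Nrg-1β1 and Vehicle library. Vehicle 1 stands highest in both panels, at 37.3% and 10.1%, while the other 5 libraries lie between 14.2% and 25.8% for mRNAs.

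Ribosomal RNAs of the mitochondrion were also highest in Vehicle library 1. The 12S rRNA mt-Rnr1 and the 16S rRNA mt-Rnr2, the RNA cores of the small and large mitochondrial ribosomal subunits, together took 2.17%, 4.19% and 4.16% of reads in Nrg-1β1 libraries 1 to 3 and 10.1%, 3.77% and 5.69% in Vehicle libraries 1 to 3. Vehicle library 2 lay below a pair of Nrg-1β1 libraries. On the log2 scale mt-Rnr1 had 14.58, 15.71 and 16.08 in Nrg-1β1 and 17.33, 15.72 and 15.95 in Vehicle libraries, a difference of -0.88 ± 0.88 (SE, adjusted p = 0.709, limma). For mt-Rnr2 the values were 15.26, 16.43 and 16.58 in Nrg-1β1 and 18.09, 16.12 and 16.59 in Vehicle libraries, a difference of -0.85 ± 1.03 (SE, adjusted p = 0.737, limma). Neither passed, and for both the groups overlapped. Without the intensity trend of the fit the SE was 0.52 for mt-Rnr1 and 0.54 for mt-Rnr2, and again neither passed (adjusted p = 0.525 and 0.564, limma). Without Vehicle library 1 the differences were -0.38 and -0.27. Without Nrg-1β1 library 1, where both rRNAs were lowest, their median was -0.43.

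Among the mRNAs, 0 of 13 passed an adjusted p of 0.05 (limma), against 1.06% of all genes tested, and 1 lay under an unadjusted p of 0.05, which 13% of all genes did. In 4 limma-voom fits on the recovered reads, which differ in the library size used, 5, 6, 9 and 8 of the 13 lay under an unadjusted p of 0.05, beside 25.2%, 21.5%, 22.4% and 23.2% of all genes (the first with the authors' factors, then totals, totals without mitochondrial genes, and totals also without Bc1). Again 0 of 13 passed in each, and the smallest adjusted p of the 4 fits was 0.0735 (limma-voom). Of the 2 rRNAs, 0, 1, 2 and 1 lay under an unadjusted p of 0.05 in these fits, in the same order, and neither passed. The difference was negative for 11 of the 13, with a median of -0.69 and a range of -1.23 to 0.45, beside a median of 0.03 over all genes, of which 47.8% were negative. On the deposited values the groups did not overlap for 3 members, mt-Co1, mt-Co2 and mt-Atp6, all lower in Nrg-1β1. Of all genes, 10.4% were lower, 7.37% higher and 17.7% either without overlap on that scale. By share of all reads mt-Cytb, mt-Nd4 and mt-Co3 did not overlap either. For mt-Nd4 the shares were 1.03% to 2.00% in Nrg-1β1 and 2.12% to 2.77% in Vehicle libraries. These shares count Bc1 in the total, and separation by share was not computed over all genes. On the deposited values Vehicle library 1 was the highest of the 6 libraries for 12 of the 15 members and Nrg-1β1 library 2 for the other 3, and Nrg-1β1 library 1 or 3 was lowest for every member. Vehicle libraries 1 and 3 were both scaled by 0.0605 normalized counts per read, at 72953034 and 47076006 reads. Deposited values thus set them farther apart than shares do: mt-Co1 had 18.66 and 17.82 on the log2 scale but 9.39% and 8.11% of reads. Differences without Vehicle library 1 carry this scaling. The median mRNA difference was -0.22 without Vehicle library 1 and -0.33 with a term for the 2 deepest libraries, where it rests on Vehicle library 2.

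Complex IV, cytochrome c oxidase, takes its catalytic core from mt-Co1 and its electron entry subunit from mt-Co2. The transcript mt-Co1 had the highest mean log2 value of all 20323 genes. Its values were 17.15, 17.47 and 17.47 in Nrg-1β1 libraries and 18.66, 17.71 and 17.82 in Vehicle libraries. All 3 Nrg-1β1 values lay below all 3 Vehicle values, and the difference of -0.70 ± 1.35 (SE) did not pass (adjusted p = 0.828, limma). That SE follows from the intensity trend of the fit at the top of the scale, and without the trend it was 0.38 (adjusted p = 0.483, limma). Other abundant members had the same: the SE of mt-Cytb, mt-Nd4 and mt-Atp6 was 1.02, 0.86 and 0.79 with the trend. Without it the SE was 0.40, 0.39 and 0.45. For the less abundant mt-Nd3, mt-Atp8 and mt-Nd4l the SE was larger without the trend. Without Vehicle library 1 the difference of mt-Co1 was -0.40. For mt-Co2 the values were 14.72, 15.22 and 14.92 in Nrg-1β1 and 17.42, 15.28 and 15.58 in Vehicle libraries. Vehicle library 1 stood far above the other 5 libraries, and the difference of -1.14 ± 0.81 (SE, adjusted p = 0.609, limma) was -0.48 without it. The third subunit, mt-Co3, averaged 15.30 ± 0.38 in Nrg-1β1 and 15.89 ± 0.81 in Vehicle (SD, n = 3 each). Its difference of -0.59 was -0.13 without Vehicle library 1 and turned to 0.31 after quantile normalization, passing in none of these.

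Complex III carries a single mitochondrial subunit, cytochrome b, encoded by mt-Cytb. Its log2 values were 16.07, 16.63 and 16.13 in Nrg-1β1 libraries and 17.60, 17.06 and 16.42 in Vehicle libraries. On this scale only Nrg-1β1 library 2 exceeded the lowest Vehicle value, and the difference of -0.75 ± 1.02 (SE) did not pass (adjusted p = 0.754, limma). It was -0.46 without Vehicle library 1. By share of all reads the groups did not overlap, at 1.78% to 2.99% in Nrg-1β1 and 3.08% to 4.51% in Vehicle libraries.

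Complex I, NADH dehydrogenase, takes 7 mitochondrial subunits, of which mt-Nd2, mt-Nd4 and mt-Nd5 form proton-pumping parts of the membrane arm. The differences of mt-Nd1, mt-Nd2 and mt-Nd4 were -0.58, -0.69 and -0.69, with group overlap of the log2 values for each. Without Vehicle library 1 they were -0.22, -0.19 and -0.41. The transcript mt-Nd3 had 10.36, 11.93 and 12.43 in Nrg-1β1 libraries and 14.04, 12.07 and 12.29 in Vehicle libraries. Its difference of -1.23 ± 0.55 (SE) had the smallest unadjusted p of the members (0.0369) and an adjusted p of 0.338 (limma), and it was -0.61 without Vehicle library 1. That rank depended on the intensity trend of the fit. Without the trend the unadjusted p of mt-Nd3 was 0.072, and the smallest was that of mt-Atp6, at 0.0203 (limma).

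The transcripts mt-Nd5 and mt-Atp8 were the 2 mRNAs with a positive difference. On the log2 scale mt-Nd5 had 15.97, 17.58 and 14.71 in Nrg-1β1 libraries, against 16.11, 15.81 and 15.49 in Vehicle libraries. Nrg-1β1 library 2 was the highest and Nrg-1β1 library 3 the lowest of all 6, while the Vehicle libraries lay within 0.62 of each other. In Nrg-1β1 library 2 it took 5.79% of all reads, more than mt-Co1 at 5.38%, whereas in Vehicle libraries it took 1.60% to 1.73%. The difference of 0.28 ± 0.92 (SE, adjusted p = 0.903, limma) turned to -0.46 without Nrg-1β1 library 2.

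The light-strand gene mt-Nd6 is the only mRNA transcribed from the opposite template, and its RNA is rich in G (28.1%) and poor in C (5.97%), while the 12 other mRNAs hold 22.1% to 29.97% C. It had 14.41, 14.22 and 13.46 in Nrg-1β1 libraries and 15.57, 14.33 and 13.79 in Vehicle libraries. The groups overlapped, and the difference of -0.54 ± 0.62 (SE, adjusted p = 0.726, limma) was -0.03 without Vehicle library 1. The sources used here do not state a strand setting for the authors' counting, so reads from the heavy-strand precursor across mt-Nd6 could be included. The small subunit gene mt-Nd4l had 12.61, 12.80 and 11.14 in Nrg-1β1 and 12.63, 12.26 and 12.54 in Vehicle libraries. Its difference of -0.29 ± 0.44 (SE, adjusted p = 0.774, limma) was 0.23 without Nrg-1β1 library 3, the lowest library.

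**Figure D2:**
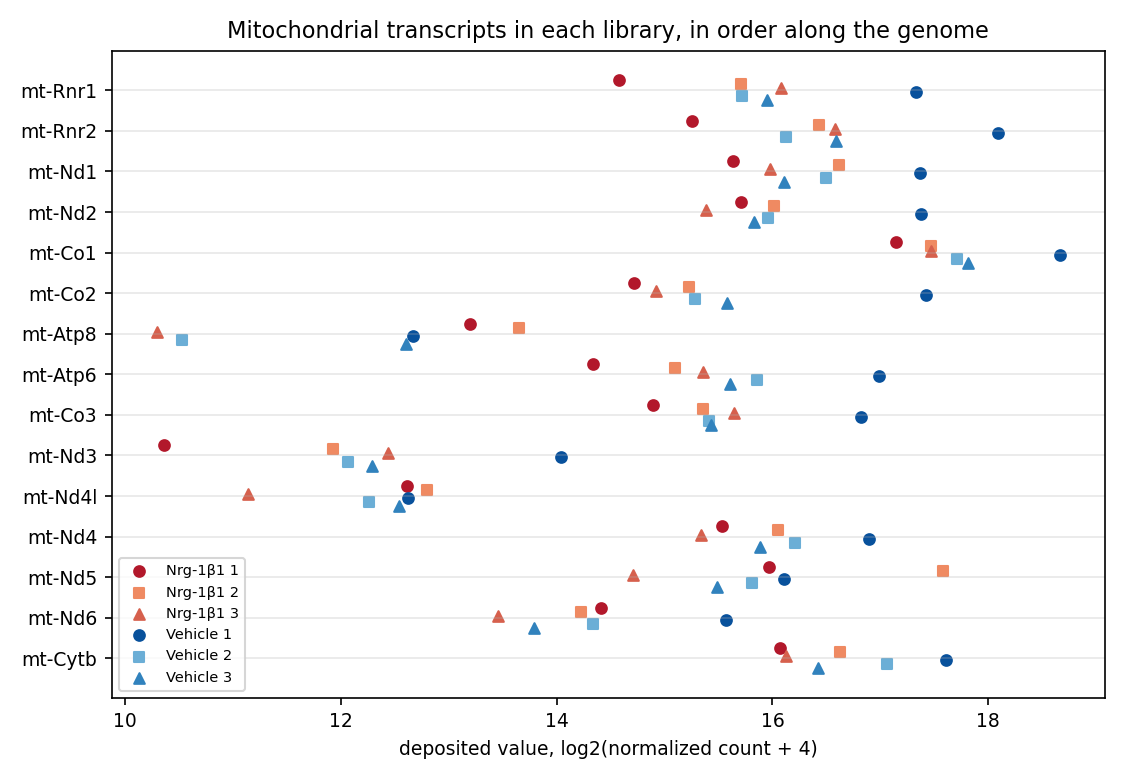
Deposited log2 value (x axis) of the 15 mitochondrial transcripts (rows, in order along the genome) in each Nrg-1β1 and Vehicle library (points). Vehicle 1 lies farthest to the right for 12 of 15, and the exceptions are mt-Atp8, mt-Nd4l and mt-Nd5, where Nrg-1β1 2 does.

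Complex V, the ATP synthase, takes the proton channel subunit from mt-Atp6 and a small membrane subunit from mt-Atp8, whose shared bases are printed above. The transcript mt-Atp6 had 14.34, 15.10 and 15.36 on the log2 scale in Nrg-1β1 libraries and 16.99, 15.86 and 15.61 in Vehicle libraries. Every Nrg-1β1 value lay below every Vehicle value, and the difference of -1.22 ± 0.79 (SE) did not pass (adjusted p = 0.551, limma). It was -0.80 without Vehicle library 1. For mt-Atp8 the values were 13.20, 13.65 and 10.29 in Nrg-1β1 and 12.67, 10.53 and 12.61 in Vehicle libraries. The low values, in Nrg-1β1 library 3 and Vehicle library 2, came from both groups, and the difference was 0.45 ± 0.69 (SE, adjusted p = 0.778, limma). It turned to -0.19 without Nrg-1β1 library 2 and to -0.26 without Vehicle library 2.

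**Figure D3:**
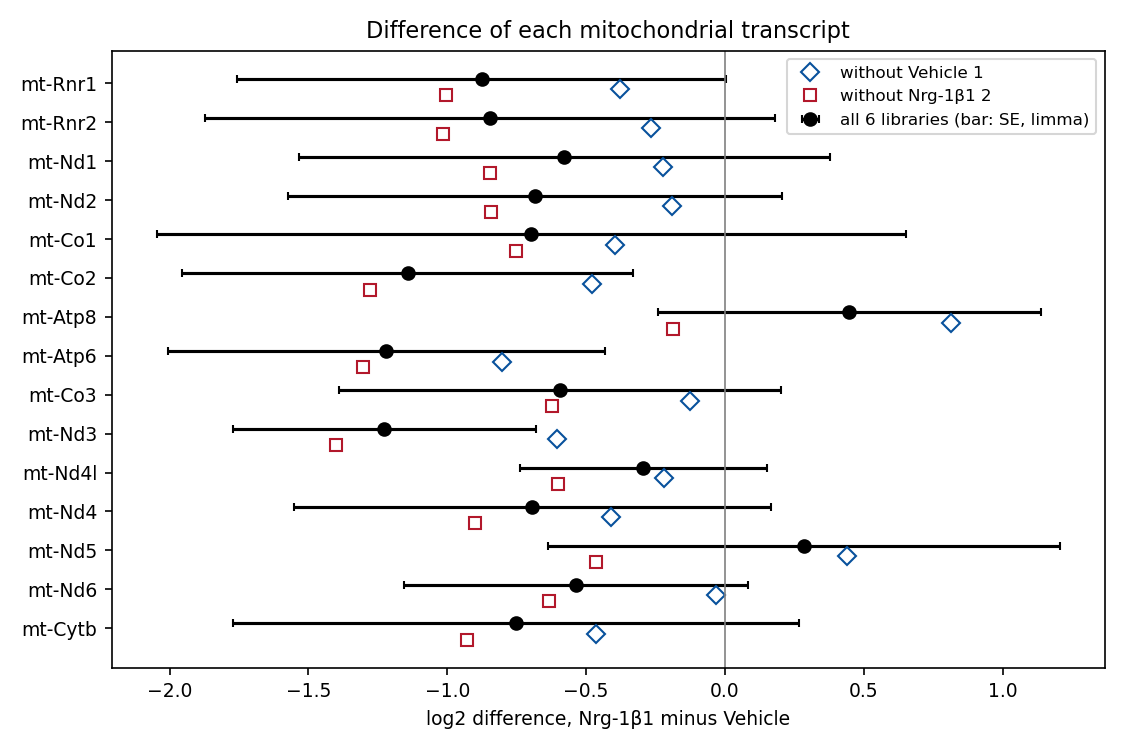
Log2 difference, Nrg-1β1 minus Vehicle (x axis), of each mitochondrial transcript with all 6 libraries (filled points, bars for the SE of limma), without Vehicle 1 and without Nrg-1β1 2 (open points). With all libraries 13 of 15 lie left of 0, and without Vehicle 1 the median of the mRNAs moves to -0.22.

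Levels of different mRNAs were compared per length, as each gene's reads per kilobase in percent of the sum over the 13 mRNAs of a library. On this scale mt-Co1 was highest in each of the 6 libraries, at 14.2% to 21.1%. By the mean over libraries mt-Cytb (10.2% to 15.3%) and mt-Nd1 (9.68% to 12.7%) came next, but the order after mt-Co1 differed between libraries: mt-Nd5 was second in Nrg-1β1 library 2 and mt-Co2 in Vehicle library 1. At the low end stood the short genes mt-Nd4l (297 bases, 1.25% to 3.84%) and mt-Nd3 (348 bases, 0.686% to 2.85%). Several mRNAs kept a steady share: the highest library exceeded the lowest by 1.30 times for mt-Nd2, 1.31 for mt-Nd1 and 1.36 for mt-Nd4. The widest ranges were those of mt-Atp8 (9.06 times), mt-Nd5 (5.70 times) and mt-Nd3 (4.15 times). For mt-Nd5 the per-length share was 6.39%, 12.99% and 2.63% in Nrg-1β1 libraries and 2.28%, 4.04% and 3.50% in Vehicle libraries, so Nrg-1β1 libraries 1 and 2 stood above the rest and library 3 did not. For mt-Co2 it was 7.16%, 6.75% and 8.14% in Nrg-1β1 and 15.1%, 7.48% and 9.97% in Vehicle libraries, with Vehicle library 1 apart.

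**Figure D4:**
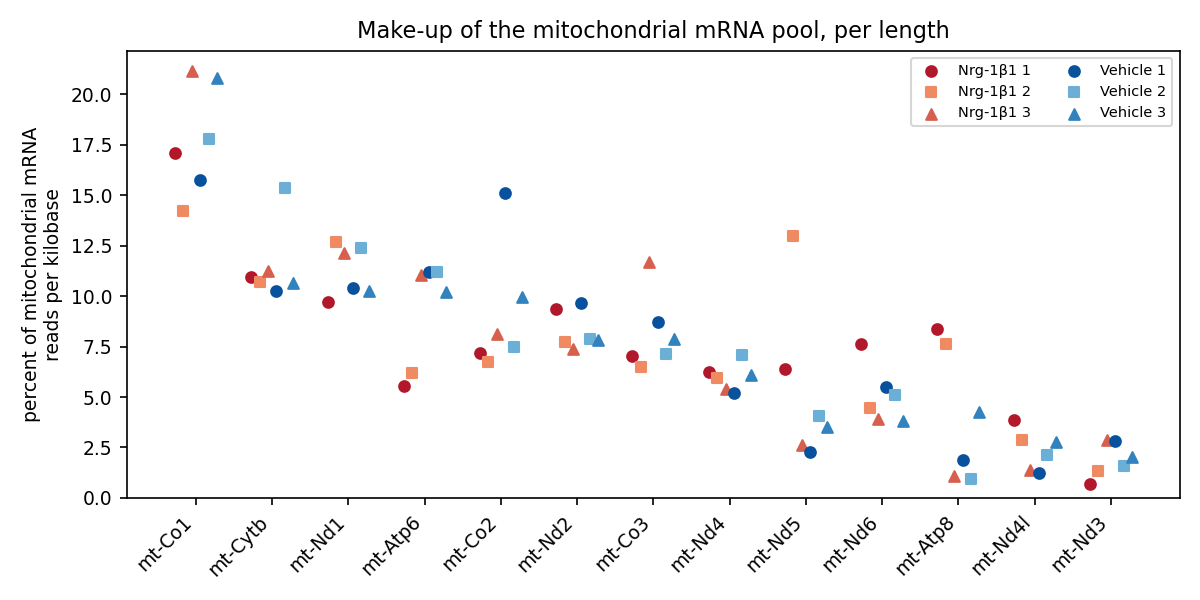
Reads per kilobase of each mitochondrial mRNA as percent of the sum over the 13 mRNAs (y axis, from 0) in each Nrg-1β1 and Vehicle library (points), genes ordered by mean. The gene mt-Co1 lies highest at 14.2% to 21.1%, and for mt-Nd5 and mt-Atp8 Nrg-1β1 1 and 2 are the highest libraries.

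Grouped by complex, the 7 complex I mRNAs made up 44.8%, 52.8% and 33.9% of mitochondrial mRNA reads in Nrg-1β1 libraries and 36.7%, 39.2% and 35.8% in Vehicle libraries. The 3 complex IV mRNAs made up 37.0%, 30.1% and 46.1% in Nrg-1β1 and 42.9%, 36.6% and 44.5% in Vehicle libraries. Nrg-1β1 library 3 lay at the opposite end from Nrg-1β1 library 2 in both groupings, farther apart than any pair of Vehicle libraries. The pair of complex V mRNAs made up 5.51%, 5.49% and 7.52% in Nrg-1β1 and 8.29%, 7.46% and 7.71% in Vehicle libraries, and mt-Cytb 12.6%, 11.6% and 12.5% against 12.1%, 16.8% and 12.04%.

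Ratios within a library do not depend on its normalization. The ratio of mt-Rnr2 to mt-Rnr1, neighbours near the start of the heavy-strand precursor, was 1.60, 1.64 and 1.42 in Nrg-1β1 libraries and 1.69, 1.32 and 1.56 in Vehicle libraries. It varied least of the 6 ratios computed, by 1.28 times. The ratio of mt-Nd6 to mt-Nd5, neighbours on opposite strands, was 0.339, 0.0974 and 0.421 in Nrg-1β1 and 0.689, 0.359 and 0.309 in Vehicle libraries, with Nrg-1β1 library 2 lowest. The ratio of mt-Co1 to mt-Rnr2 was 3.71, 2.06 and 1.85 in Nrg-1β1 and 1.48, 3.0 and 2.34 in Vehicle libraries. Between groups these 3 ratios differed by 0.03, -0.82 and 0.15 on the log2 scale, none beyond the spread between libraries (two-sided exact permutation p = 0.80, 0.50 and 0.80, all 0.80 after Benjamini-Hochberg adjustment over the 3). With 3 libraries against 3, the smallest p this test can give is 0.10.

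A further 3 ratios were chosen after their values were seen and are given without a test. The ratio of mt-Atp8 to mt-Atp6, which are translated from a shared mRNA, was 0.454, 0.368 and 0.0298 in Nrg-1β1 libraries and 0.05, 0.0248 and 0.125 in Vehicle libraries, a spread of 18.3 times. Nrg-1β1 libraries 1 and 2 and Vehicle library 3 were the 3 highest. The same 3 libraries were highest for the ratio of mt-Nd4l to mt-Nd4, which also share an mRNA, at 0.133, 0.105 and 0.0545 in Nrg-1β1 and 0.0517, 0.0647 and 0.0985 in Vehicle libraries. They were also highest for the ratio of mt-Nd5 to mt-Cytb, at 0.930, 1.94 and 0.373 in Nrg-1β1 and 0.355, 0.420 and 0.523 in Vehicle libraries. How the authors' counter treated reads in overlapping genes is not stated, and its part in these ratios was not tested.

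**Figure D5:**
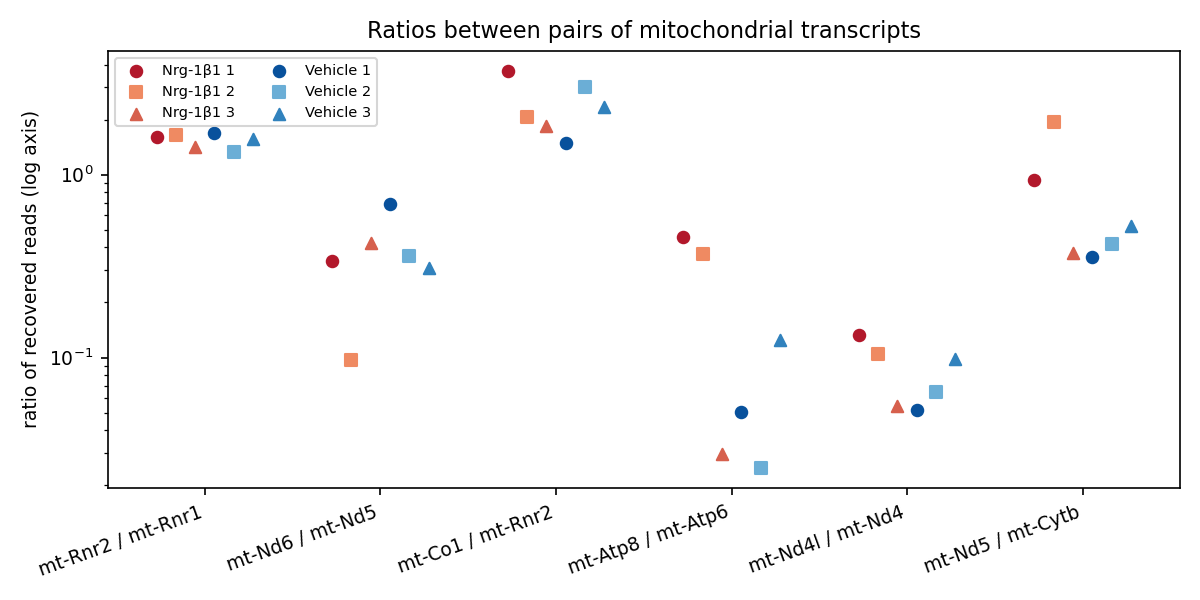
Ratios of recovered reads between pairs of mitochondrial transcripts (y axis, log scale) in each Nrg-1β1 and Vehicle library (points). The ratio of mt-Rnr2 to mt-Rnr1 varies by 1.28 times over the 6 libraries and that of mt-Atp8 to mt-Atp6 by 18.3 times.

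Across the 13 mRNAs, neither length, order on the genome nor GC content tracked the difference between groups. Spearman's rho was -0.10 with length, 0.09 with order and -0.06 with GC content, a description over genes that share libraries and precursors. The range within a group tended to be wider for short genes, with a rho of -0.50 over the Nrg-1β1 libraries and -0.53 over the Vehicle libraries. Pearson's r was -0.245 and -0.53. There were exceptions: mt-Nd4l (297 bases) had the narrowest Vehicle range, 0.36, and mt-Nd5 (1824 bases) a range of 2.87 over the Nrg-1β1 libraries. The range also tended to be wider for genes of low GC content, with a rho of -0.47 over the Nrg-1β1 and -0.59 over the Vehicle libraries.

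Nuclear genes that express and maintain mitochondrial DNA, 49 of 49 measured, had 0 members that passed (limma), beside 1.06% of all genes. Under an unadjusted p of 0.05 lay 8 of the 49 (limma), beside 13% of all genes. The median difference of the 49 was -0.15. Polrmt, the mitochondrial RNA polymerase, differed by -0.26 ± 0.43 (SE) and Tfam, which packages the DNA and activates its promoters, by -0.15 ± 0.35 (adjusted p = 0.789 and 0.86, limma). For Polrmt the difference turned to 0.18 without Nrg-1β1 library 2, and for Tfam to 0.065 with libraries centred on their medians. The coactivator genes of mitochondrial biogenesis Ppargc1a and Ppargc1b differed by 0.84 and 1.49 (adjusted p = 0.298 and 0.154, limma). Pde12, a mitochondrial RNA deadenylase gene, had 3.53, 0 and 0.754 RPM (reads scaled by library total) in Nrg-1β1 libraries, from 3 reads in all, and 5.29, 10.2 and 7.35 in Vehicle libraries. Its difference of -2.00 (adjusted p = 0.095, limma) depends on the pseudocount and was -2.89 with 1 and -1.06 with 16. The termination factor gene Mterf1a had 0 reads in the Nrg-1β1 libraries, where 3 reads over the group would be 1.17 RPM, and 1.18, 1.86 and 1.61 RPM in Vehicle libraries (adjusted p = 0.18, limma). Its level in Vehicle is thus close to the limit of detection in Nrg-1β1. In the list of mitochondrial aminoacyl-tRNA synthetases and tRNA modifiers 0 of 31 passed, and 0 lay under an unadjusted p of 0.05 (limma). The shares of all genes were again 1.06% and 13%. The list had a median of 0.02, and Hars2, Cars2 and Lars2 differed by 0.75, 0.88 and 0.70.

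The nuclear-encoded partners of the same complexes had mostly positive differences. Of 53 measured subunits 3 rose and 0 fell, beside 0.438% of all genes higher and 0.625% lower. The median was 0.43, with 41 differences above 0 and 12 below, where 47.8% of all genes were below. Under an unadjusted p of 0.05 lay 17 of the 53 (limma), beside 13% of all genes. Summed, they took 0.994%, 1.06% and 0.680% of nuclear-encoded reads in Nrg-1β1 libraries 1 to 3. In Vehicle libraries 1 to 3 they took 0.993%, 0.519% and 0.537%, so the groups overlapped. Uqcrh, a complex III subunit, had 9.97, 10.28 and 8.998 in Nrg-1β1 libraries and 8.29, 7.90 and 6.20 in Vehicle libraries on the log2 scale, a difference of 2.29 ± 0.44 (SE, adjusted p = 0.0158, limma). Cox5a of complex IV and Atp5b, the catalytic beta subunit of complex V, rose by 1.90 and 1.74 (adjusted p = 0.0194 and 0.0415, limma). These 3 calls rest on the settings: the count was 0 without any of Nrg-1β1 libraries 1, 2 and 3 or Vehicle libraries 2 and 3, and 3 without Vehicle library 1. It was also 0 with a term for the 2 deepest libraries and 11 with libraries centred on their medians. For complex II, which is wholly nuclear, 0 of 4 genes passed (limma), and 2 lay under an unadjusted p of 0.05, beside 13% of all genes. The median was 0.73, with Sdhc at 0.96 (adjusted p = 0.112, limma) and Sdhb at 0.50. Sdhd, with at most 4 reads in any library, stood at 1.45 (2.51 with pseudocount 1, 0.63 with 16). Whether mitochondrial and nuclear subunits differ from each other between the groups was not tested.

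Among the 8 nuclear-retained long noncoding RNAs 0 passed (limma), beside 1.06% of all genes. Under an unadjusted p of 0.05 lay 4 of the 8 (limma), beside 13% of all genes. Of the differences 4 were positive and 4 negative, and the median was -0.0062. The 8 RNAs summed to 0.0775% to 0.137% of nuclear-encoded reads in Nrg-1β1 libraries and 0.149% to 0.356% in Vehicle libraries. Vehicle library 1 was highest, and at most 1 member was at 0 reads in a library. Of the members named here, only Malat1 was highest there, with 1647 RPM against 157 to 741 in the other libraries. Neat1 had 46.2 RPM in Vehicle library 1, below the 124 and 166 in Vehicle libraries 2 and 3. Rian had 104 RPM in Vehicle library 1, its lowest value of the 6 libraries. Malat1 and Neat1 differed by -1.85 and -1.21 (adjusted p = 0.0554 and 0.0931, limma), and Rian by 1.21 (adjusted p = 0.0673, limma).

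Markers of several other cell types were lower in Nrg-1β1. Endothelial markers, of which 9 of 12 fell beside 0.625% of all genes, summed to 0.00536% to 0.00689% in Nrg-1β1 and 0.0292% to 0.189% in Vehicle libraries, with at most 1 marker at 0 reads in any library. Choroid plexus markers (5 of 10 fell) summed to 0.0220% to 0.0296% in Nrg-1β1 and 0.131% to 0.385% in Vehicle libraries, with up to 3 at 0 reads in Nrg-1β1 libraries and 0 in Vehicle libraries. Microglial markers (8 of 12 fell) summed to 0.12% to 0.161% in Nrg-1β1 and 0.359% to 0.605% in Vehicle libraries, with at most 1 at 0 reads in an Nrg-1β1 library and 0 in Vehicle libraries. Erythroid markers (4 of 4 measured fell) summed to 0.0133% to 0.0860% in Nrg-1β1 and 0.138% to 0.408% in Vehicle libraries, with 0 at 0 reads. These calls were lost with the depth term and without any of Nrg-1β1 libraries 1, 2 and 3 or Vehicle library 2, where 0 of each list passed. Without Vehicle library 1, 4 endothelial, 3 choroid plexus, 1 microglial and 2 erythroid markers passed, and without Vehicle library 3 1 choroid plexus marker did. In the 4 limma-voom fits 0 endothelial, 0 microglial and 0 erythroid markers passed, and 2, 1, 1 and 0 choroid plexus markers did. Without the intensity trend 2 endothelial, 3 choroid plexus, 0 microglial and 0 erythroid markers passed. With libraries centred on their medians the counts were 11, 6, 6 and 4, in that order. Ependymal markers (0 of 7 passed, 7 negative) summed to 0.00517% to 0.00579% in Nrg-1β1 and 0.00570% to 0.0432% in Vehicle libraries, and astrocyte markers (0 of 10 passed, 10 positive) to 1.47% to 2.11% in Nrg-1β1 and 1.22% to 1.63% in Vehicle libraries. Neuron markers (0 of 11 passed, 10 positive) summed to 0.261% to 0.503% in Nrg-1β1 and 0.234% to 0.315% in Vehicle libraries. Of oligodendrocyte progenitor markers 1 of 9 rose, and of neural progenitor markers 1 of 11, beside 0.438% of all genes. Both calls were lost with the depth term and without any 1 library. Mature oligodendrocyte markers had 0 of 10 passed and 9 negative. The part of these cells, of nuclear RNA or of depth in the mitochondrial shares was not tested.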

How the data were processed

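RNA from 6 sorted samples (3 Nrg-1β1, 3 Vehicle) was sequenced. Trimmomatic and Bowtie2 are listed without versions, per the submitters' processing notes. For the counter, strand setting, build, normalization and gene filter the sources used here give nothing. The deposited values are log2, and 6779 of 27102 rows were blank. After 4 was subtracted from the unlogged values, 100% were whole multiples of a step per library within 0.02 of a read, which gave the reads. Nothing states how multi-mapping reads were treated, so reads shared with nuclear copies of mitochondrial DNA are uncertain.

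Limma 3.58.1 with an intensity trend (R 4.3.3) compared the groups on all 20323 genes, fitting group alone, with Benjamini-Hochberg adjustment at 0.05. Adjusted p-values of genes are from limma or, where named, limma-voom, and those of the ratios from the permutation test. Differences are Nrg-1β1 minus Vehicle. The planned tRNA comparison had no analysed rows. The fit was also run on simulated counts with large changes, in which all genes vary alike between libraries. Those counts lack the spread between the real libraries, so that run is no check on the members. Members, lists and tests were chosen with earlier results of these data known. Named genes are all members, and in related lists the 3 smallest p-values at most plus Polrmt, Tfam and Ppargc1a. Gene lengths are those of GENCODE M21 transcripts. Alternatives were other normalizations, pseudocounts, filters, limma-voom on recovered reads, a replicate block, a depth term and leaving out each library.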

Additional observations from a re-analysis of the deposited data

How the results depend on the processing

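None of the 15 mitochondrial transcripts passed under any alternative run, including limma-voom and each left-out library. Their differences kept their sign except for mt-Co3 (0.31, quantile normalization), mt-Nd5 (-0.46 to 0.97 over left-out libraries), mt-Atp8 (-0.26 to 1.49, and -0.0029 with limma-voom on totals without mitochondrial genes), mt-Nd4l (-0.60 to 0.23), and, among nuclear genes, Polrmt (-0.56 to 0.18) and Tfam (0.065, median centring). The mRNA share differed by -12.7 to -5.50 points and the rRNA share by -4.37 to -1.23 over left-out libraries, and by -21.5 and -6.28 as a percent of nuclear reads. The log2 ratios ranged from -0.068 to 0.11 (mt-Rnr2 to mt-Rnr1), -1.22 to -0.17 (mt-Nd6 to mt-Nd5) and -0.16 to 0.38 (mt-Co1 to mt-Rnr2).

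Over all genes, 89 were higher and 127 lower. The counts were 2 and 19 without the trend, 12 and 53 with quantile normalization, 335 higher with median centring, which moved the median difference to 0.25, 11 and 38 at a mean normalized count of at least 50 (fewer genes tested), and 49 and 80 with pseudocount 1. With limma-voom they were 19 and 3 (authors' factors), 13 and 1 (library totals), 7 and 1 (totals without mitochondrial genes) and 5 and 0 (also without Bc1, chosen after seeing the data). The depth term gave 0 and 0. Left-out libraries gave 0 to 15 higher and 0 to 41 lower. For the nuclear subunits of complexes I, III, IV and V the count of 3 became 0 in each of these but median centring (11) and pseudocounts 1 and 16 (2 and 3), and 0 to 3 over left-out libraries. The cause was not tested.

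Same-numbered libraries did not deviate together (correlations -0.27, -0.07 and -0.30), and no library correlated best with its own number. With the replicate block 285 genes were higher and 342 lower, 10 nuclear subunits and 1 gene of mitochondrial DNA expression, Pde12 (adjusted p = 0.0467, limma), passed, and 0 mitochondrial transcripts did. No tRNA value could be given under any setting.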
